A study of Mus musculus with 4 samples.

Results

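NF-kB is a family of transcription factors built as pairs of 5 subunits, and its 10 core genes were read here across 4 RNA-seq libraries of mouse peritoneal macrophages. The members were the rows of the count table whose gene name equals Nfkb1, Nfkb2, Rel, Rela, Relb, Nfkbia, Nfkbib, Nfkbie, Nfkbiz or Tnfaip3, that is 10 of the 54532 genes listed. All 10 were found, and all 10 had at least 10 reads in at least 1 library, as did 13715 genes in all. The rule reads gene names alone, but the members were chosen with earlier results of these data known. Their counts beside those of all genes are therefore descriptive.

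The macrophages carried the WT genotype and came from peritoneal fluid. According to the methods of the study, macrophages of this kind were elicited in BALB/c mice with thioglycollate, a broth that draws recruited monocytes into the peritoneal cavity, so they stand for an inflammatory exudate and not for resident cells of the lung. The culture medium was either normal medium or one containing 30% 4T1-CM, the conditioned medium of the 4T1 mouse mammary carcinoma line, and each medium held either DMSO, the solvent, or 10 µM CH223191, an antagonist of the aryl hydrocarbon receptor (AHR). The series asked what AHR activity contributes to the macrophage response to tumor cell products. Each of the 4 combinations was sequenced as 1 library with no replicate, so no difference between a pair of libraries could be tested, and the intervals below cover counting error only.

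In resting macrophages NF-kB subunits are held in the cytoplasm by the IkB proteins. Signals from Toll-like, TNF and IL-1 receptors activate the IKK complex, which marks IkB for destruction and frees the subunits to enter the nucleus. Among the genes they then switch on are those of several of their own subunits and inhibitors, which gives the pathway its negative feedback. In macrophages the pathway drives cytokines, chemokines and survival genes. The protein steps, phosphorylation, degradation and nuclear entry, are not visible in RNA.

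Short stretches upstream of the members are shown first because binding sites for the family near its own genes are part of that feedback. The RefSeq promoter table of GRCm38.p6 held windows of 300 bases, 250 before and 50 after an annotated start, for 7 of the 10 members, Nfkb2, Rel, Rela, Nfkbia, Nfkbib, Nfkbie and Tnfaip3. Nfkb1, Relb and Nfkbiz had none. The kB consensus, which is GGG, a purine, any 2 bases, 2 pyrimidines and CC, was searched on both strands. The first window of 5 of these 7 genes held it, against that of 8.18% of all 27025 genes in the table. Each match is given below 5′ to 3′ on the strand of its gene with 8 bases on either side, and the capitals mark the match, which spans 11 bases where matches on the 2 strands overlap.
Nfkbia, chr12:55492659-55492684, minus strand, bases -29 to -20 from the start: actggcttGGAAATTCCCcgcgcctg
Nfkbie, chr17:45555586-45555611, plus strand, bases -106 to -97: agcaaacaGGGGGATTCCggaggggc
Rel, chr11:23771043-23771069, minus strand, bases -92 to -82: taagcagcGGGAAATCCCCccccctcc
Nfkb2 upstream match, chr19:46304690-46304716, plus strand, bases -39 to -29: atcgtcacGGGAATTCCCCccctcggg
Nfkb2 match next to the start, chr19:46304718-46304743, plus strand, bases -11 to -2: ggccgaaaGGGGCTTTCCcggctgga
Tnfaip3 upstream match, chr10:19015518-19015543, minus strand, bases -125 to -116: ctcacgcgGGGACACCCCggggcggg
Tnfaip3 match next to the start, chr10:19015405-19015430, minus strand, bases -12 to -3: tttccatcGGAAATCCCCctgttggc

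The windows of Rela and Nfkbib held no match, which says only that these letters are absent there. A looser form, GGG and CC with any 5 bases between them, occurred in the first window of 6 of the 7 genes, Rela included and Nfkbib not. The first window of 50.4% of all genes held it. Nfkb2 has 3 annotated starts, and its 2 downstream windows also held kB matches, of which 1 is the same site seen from both starts. Tnfaip3 has a second start whose window held none. The annotated starts of Nfkbib and of the first Tnfaip3 window lie 868 and 247 bases from the gene start given in the count table, and that of Rela 58 bases.

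For comparison, the 250 bases before the start are given in full for 2 genes whose level differed at least 2-fold between the media, Nfkbia and Nfkbie, for Rel, which holds a match and differed by less than 2-fold, and for the 2 with the smallest differences, Rela and Nfkbib. Nfkb2 and Tnfaip3 also hold matches and were below 2-fold, so a match did not go with a 2-fold difference in every gene. The genes were picked by their values, and no relation between motif and response is read from them. Capitals again mark the kB consensus.
Nfkbia, chr12:55492648-55492897, minus strand: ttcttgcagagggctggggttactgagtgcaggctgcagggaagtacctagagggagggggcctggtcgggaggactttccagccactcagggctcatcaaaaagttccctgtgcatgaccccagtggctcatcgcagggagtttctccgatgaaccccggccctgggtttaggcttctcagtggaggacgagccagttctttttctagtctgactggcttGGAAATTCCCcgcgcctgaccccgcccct
Nfkbie, chr17:45555450-45555699, plus strand: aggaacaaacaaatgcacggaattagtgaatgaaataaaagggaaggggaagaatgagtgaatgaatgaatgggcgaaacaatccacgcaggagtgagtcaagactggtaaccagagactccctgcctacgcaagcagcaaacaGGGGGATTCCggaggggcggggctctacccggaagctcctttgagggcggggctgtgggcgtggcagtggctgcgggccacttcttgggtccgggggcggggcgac
Rel, chr11:23770970-23771219, minus strand: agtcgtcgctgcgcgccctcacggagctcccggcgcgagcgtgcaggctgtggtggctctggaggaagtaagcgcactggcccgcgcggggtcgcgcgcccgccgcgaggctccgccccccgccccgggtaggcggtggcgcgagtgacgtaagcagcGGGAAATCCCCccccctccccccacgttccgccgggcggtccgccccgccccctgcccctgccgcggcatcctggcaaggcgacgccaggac
Rela, chr19:5637291-5637540, plus strand: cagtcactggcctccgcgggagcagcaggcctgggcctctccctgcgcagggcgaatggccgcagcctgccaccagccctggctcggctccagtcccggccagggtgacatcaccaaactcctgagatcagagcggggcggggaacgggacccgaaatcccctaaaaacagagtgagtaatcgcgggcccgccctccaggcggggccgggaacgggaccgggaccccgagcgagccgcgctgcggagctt
Nfkbib, chr7:28766645-28766894, minus strand: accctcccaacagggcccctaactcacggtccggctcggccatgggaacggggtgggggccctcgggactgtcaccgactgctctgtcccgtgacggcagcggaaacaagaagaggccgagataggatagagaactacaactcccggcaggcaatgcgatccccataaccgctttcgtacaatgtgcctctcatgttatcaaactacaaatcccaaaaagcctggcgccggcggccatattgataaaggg

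**Figure D1:**
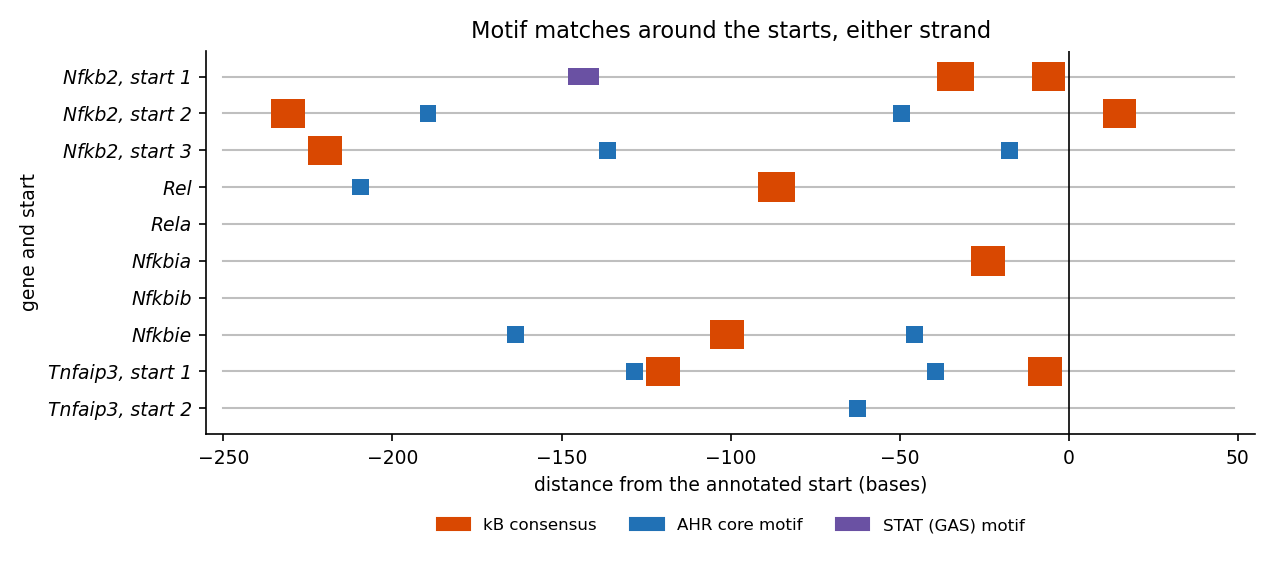
Matches on either strand to the kB consensus (orange), the AHR core motif (blue) and a STAT motif of the GAS type (purple) in the 10 windows of 7 genes. The horizontal axis is the distance in bases from the annotated start, the line at 0, and each row is 1 start. Nfkbia, Rel, Nfkbie, the first start of Tnfaip3 and the 3 starts of Nfkb2 hold kB matches, and Rela and Nfkbib hold none of the 3 motifs.

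Because the study concerns AHR, its core motif GCGTG was searched in the same way. It was present in 4 of the 7 genes, Nfkb2, Rel, Nfkbie and Tnfaip3, for Nfkb2 in its downstream windows alone. The first window of 32.5% of all genes held it. The sequence TTCNNNGAA, the core of STAT binding sites, was found in the first window of 1 of 7, Nfkb2, and of 8.47% of all genes. Binding was not measured here.

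The libraries held 15535405 to 17557127 reads. Levels are given as reads per 1000000 (CPM) after TMM scaling, where 3 reads correspond to 0.171 to 0.189 CPM. All 7 macrophage markers were above 10 reads. Their summed level was 14194 and 18394 CPM in normal medium with DMSO and CH223191 and 37538 and 40077 CPM in 4T1-CM, most of it Lyz2. Mrc1 went the other way, at 172 and 142 CPM in normal medium and 100 and 92.6 CPM in 4T1-CM. Marker sums of some other cell types differed between the media, though not every marker followed its sum. Of 6 fibroblast markers 5 were detected, at a sum of 63.1 and 30.1 CPM in normal medium and 149 and 128 CPM in 4T1-CM. Of 8 neutrophil markers 4 passed 10 reads, at 67.6 and 74.7 against 242 and 181 CPM, while S100a9 and Ly6g were at 0 in every library. B cell markers summed to 20.2 and 34.3 against 7.95 and 5.30 CPM and eosinophil markers to 16.3 and 14.4 against 6.17 and 5.79 CPM. Ighm made nearly all of the B cell sum, at 317 and 540 against 128 and 67 reads. Cd79b had 1 and 1 against 5 and 9. Siglecf made nearly all of the eosinophil sum, with Epx and Prg2 at 0. Mmp8 rose most among the neutrophil markers, from 35 and 21 to 2142 and 759 reads. Cxcr2 had 12 and 9 against 2 and 0. Pdgfra, unlike the collagens and Dcn, was lower in 4T1-CM with DMSO, at 4.74 against 5.71 CPM. T cell, epithelial, dendritic and mast cell markers stayed at or below 2.46 CPM, with Cd3d, Cd3e, Cd3g, Cd8a and Krt19 at 0. Mitochondrial genes took 0.633% and 1.17% of reads in normal medium and 1.76% and 1.79% in 4T1-CM. The part of these differences in the results below was not tested, and in bulk RNA fewer cells of a type cannot be told apart from less RNA per cell.

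Nfkbiz, Nfkbia, Nfkbie and Relb were at least 2-fold higher in 4T1-CM than in normal medium, both with DMSO and with CH223191. Nfkbia and Nfkbie encode cytoplasmic IkB inhibitors, Nfkbiz a nuclear IkB protein and Relb a subunit. The comparison with DMSO and that with CH223191 share no library. With DMSO 4 of 10 members were at least 2-fold higher and 0 lower, where 12.2% of all 13715 genes were higher and 6.12% lower. With CH223191 the counts were again 4 and 0, beside 12% and 7.86% of all genes, and 4 and 0 met the limit in both, beside 8.18% of genes higher and 3.38% lower. The median log2 ratio of the 10 was 0.73 with DMSO and 0.72 with CH223191, and that of all genes 0.01 and 0.02. The counting interval lay above 0 for all 10 in both comparisons, and for 6 of them the difference was under 2-fold. The share of all genes with such an interval was not computed. At this depth the interval left out 0 for small ratios too. Rela, at 0.18 with DMSO, was above 62.1% of all genes. An additive fit over the 4 libraries, with terms for medium and inhibitor, was run as an alternative. It took the 2 libraries of a medium as replicates apart from the inhibitor term, so its p-values do not measure variation between cultures. The medium term passed an adjusted p of 0.05 for 8 of 10 members with edgeR, beside 32.6% of all genes, and for 8 with DESeq2, beside 18.5%. The inhibitor term passed it for 0 of 10 with either tool, beside 0.0802% and 0.136%.

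**Figure D2:**
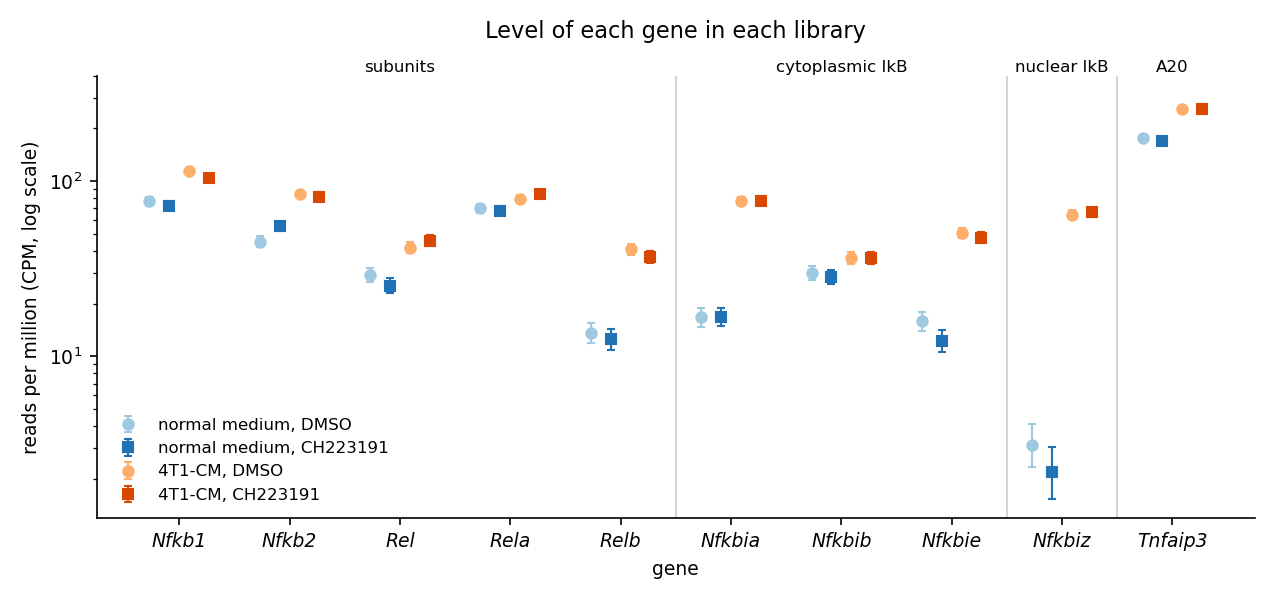
Level of the 10 genes in each library in CPM on a log axis, with 95% counting intervals. Circles are DMSO and squares CH223191, blue is normal medium and orange 4T1-CM. Every gene is higher in both 4T1-CM libraries than in both normal medium libraries, from a narrow step for Rela to the wide gap of Nfkbiz, at 2.20 to 3.14 CPM in normal medium and 64.6 to 66.6 CPM in 4T1-CM.

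The subunits with a transactivation domain are Rela, Rel and Relb. Rela, which encodes p65 of the classical dimer, had 1115 and 1079 reads in normal medium with DMSO and CH223191 and 1388 and 1373 reads in 4T1-CM. Its levels were 70.0, 67.9, 79.3 and 84.6 CPM, the narrowest spread among the 10 genes. The ratio of 4T1-CM to normal medium was 0.18 on the log2 scale with DMSO (95% counting interval 0.07 to 0.30) and 0.32 with CH223191 (0.20 to 0.43). Rela lies on chromosome 19 from 5637483 to 5648130 in the table.

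Rel, which encodes c-Rel, had the fewest reads of the subunits after Relb. There were 467 and 403 reads in normal medium and 729 and 742 reads in 4T1-CM, or 29.3, 25.4, 41.7 and 45.7 CPM. The log2 ratio for 4T1-CM was 0.51 with DMSO (0.34 to 0.68) and 0.85 with CH223191 (0.67 to 1.03). Both 4T1-CM libraries were above both normal medium libraries.

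Relb, the partner of p52 in the alternative pathway, differed more than any other subunit. It had 217 and 199 reads in normal medium and 717 and 600 in 4T1-CM. In CPM the values were 13.6 and 12.5 against 41.0 and 37.0. The log2 ratios with DMSO and CH223191, 1.59 (1.37 to 1.82) and 1.56 (1.33 to 1.80), nearly coincided.

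Nfkb1 and Nfkb2 encode the precursors p105 and p100, which are cut to p50 and p52 and which, uncut, act as inhibitors themselves. Nfkb1 had 1221 and 1155 reads in normal medium and 1997 and 1702 in 4T1-CM, or 76.6, 72.7, 114 and 105 CPM. Its ratio for 4T1-CM was 1.49-fold with DMSO and 1.44-fold with CH223191, short of 2-fold in each. Nfkb2 had 720 and 879 reads in normal medium and 1471 and 1327 in 4T1-CM, or 45.2, 55.3, 84.1 and 81.7 CPM. Its ratio was 1.86-fold with DMSO, the nearest to 2-fold of the members below it, and 1.48-fold with CH223191.

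Nfkbia encodes IkB-alpha, the inhibitor that is degraded and resynthesized fastest in the classical pathway. Normal medium gave 267 reads for DMSO and 268 for CH223191, and 4T1-CM gave 1344 and 1258. In CPM it stood at 16.8 and 16.9 against 76.8 and 77.5. The ratio was 4.58-fold with DMSO and 4.59-fold with CH223191, log2 2.19 (2.01 to 2.39) and 2.20 (2.01 to 2.40).

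Nfkbie encodes IkB-epsilon, which acts mainly on dimers with Rela and Rel. Its reads were 254 and 195 in normal medium and 891 and 774 in 4T1-CM, or 15.9, 12.3, 50.9 and 47.7 CPM. It was 3.19-fold higher in 4T1-CM with DMSO and 3.88-fold with CH223191. Nfkbib, which encodes IkB-beta, had 479 and 450 reads in normal medium and 641 and 592 in 4T1-CM. At 30.1, 28.3, 36.6 and 36.5 CPM it was, beside Rela, the gene that differed least, with log2 ratios of 0.28 (0.11 to 0.46) and 0.36 (0.19 to 0.55). Nfkbib overlaps Sirt2, on the opposite strand, over 778 bases, and Sirt2 had 2101 to 2938 reads. Of the 50-base words in Nfkbib transcripts 12.6% also occur in Ccer2, which had 0 reads, and none occur in Sirt2 on either strand. Strand use in the counting is not stated, so the value of Nfkbib is uncertain over the stretch shared with Ccer2. Of the words of Nfkb2 14.9% occur in Psd or AC114539.1, and Psd had 45 to 98 reads.

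Nfkbiz encodes IkB-zeta, an inducible nuclear IkB protein that works with p50 on a second wave of target genes, among them Il6. Its 50 and 35 reads in normal medium and 1130 and 1081 reads in 4T1-CM gave 3.14, 2.20, 64.6 and 66.6 CPM. The ratio was 20.4-fold with DMSO, log2 4.35 (3.95 to 4.80), and 29.8-fold with CH223191, log2 4.90 (4.43 to 5.45). By size of ratio it ranked 150 of 13715 genes with DMSO and 73 with CH223191. The low count in normal medium makes this the widest interval among the members.

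Tnfaip3 encodes A20, an ubiquitin-editing enzyme that shuts down signaling above IKK. It had the most reads of the 10 in every library, 2816 and 2705 in normal medium and 4512 and 4185 in 4T1-CM, or 177, 170, 258 and 258 CPM. Its ratio of 1.46-fold with DMSO and 1.51-fold with CH223191 was below that of the induced IkB genes, and its narrow intervals, log2 0.48 to 0.61 and 0.53 to 0.67, kept it under 2-fold.

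**Figure D3:**
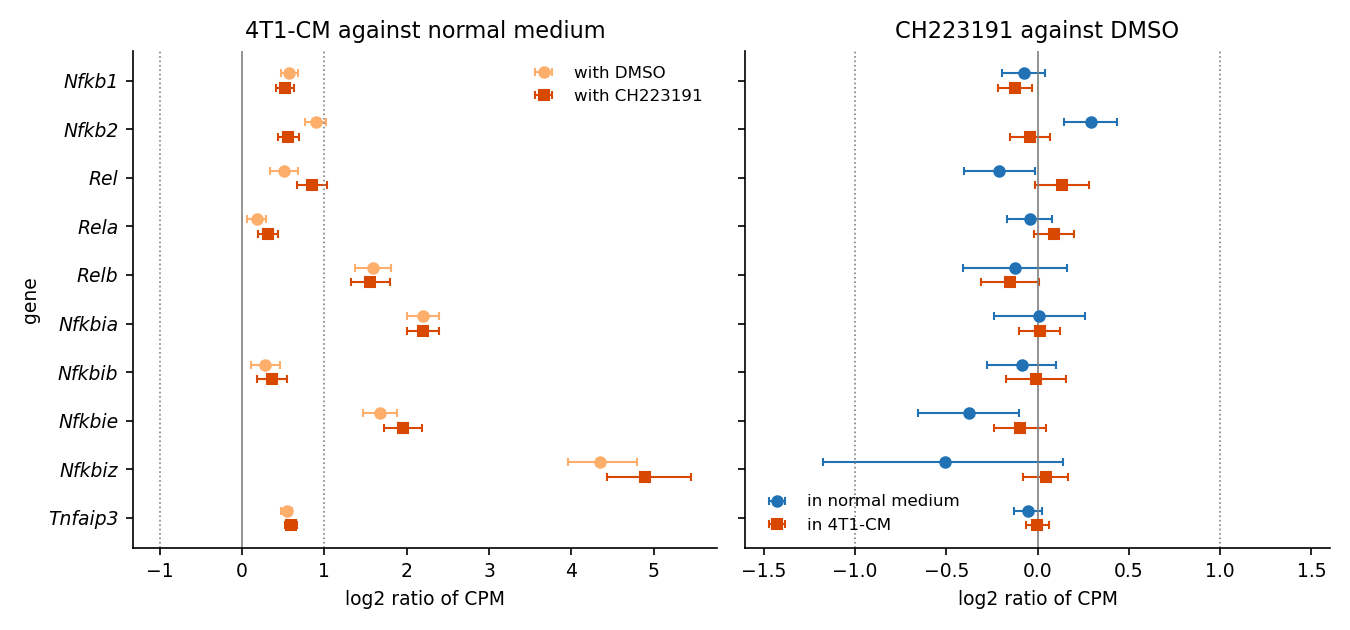
Log2 ratio of CPM for each gene with 95% counting intervals, 4T1-CM against normal medium on the left and CH223191 against DMSO on the right, on an enlarged scale. Dotted lines mark 2-fold. On the left Relb, Nfkbia, Nfkbie and Nfkbiz lie beyond 2-fold with both DMSO and CH223191, and on the right every estimate lies inside it, the lowest being Nfkbiz in normal medium at -0.51.

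CH223191 against DMSO gave 0 of 10 members at least 2-fold changed in normal medium, beside 4.84% of all genes higher and 3.31% lower, and 0 of 10 in 4T1-CM, beside 2.8% and 2.62%. The members had a median log2 ratio of -0.08 under normal medium conditions and of -0.0038 under 4T1-CM. In normal medium the counting interval left out 0 for Nfkb2, 0.29 higher (0.15 to 0.44), for Rel, at -0.21 (-0.41 to -0.01), and for Nfkbie, at -0.38 (-0.65 to -0.10). In 4T1-CM it did so for Nfkb1 alone, at -0.12 (-0.22 to -0.03). Nfkbiz in normal medium, with 35 against 50 reads, had a ratio of -0.51 whose interval of -1.18 to 0.14 did not leave out a 2-fold decrease. For the other 9 members the intervals in both media stayed within 2-fold.

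The response to 4T1-CM with CH223191 minus that with DMSO was computed from all 4 libraries for each member. It was -0.33 for Nfkb2 (-0.51 to -0.15) and 0.34 for Rel (0.10 to 0.58) on the log2 scale, and the interval held 0 for the other 8. For Nfkb2 the libraries apart were those in normal medium, 45.2 CPM with DMSO and 55.3 with CH223191, whereas in 4T1-CM they were 84.1 and 81.7 CPM. The difference was 0.55 for Nfkbiz (-0.09 to 1.18), 0.28 for Nfkbie (-0.02 to 0.58) and 0.0036 for Nfkbia (-0.26 to 0.27). With 1 culture per condition, variation between cultures and the inhibitor cannot be told apart in these differences.

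To compare genes with each other, CPM was divided by the gene length given in the table, in kilobases. In normal medium with DMSO, Rela at 25.8 and Tnfaip3 at 24.5 CPM per kilobase led with overlapping intervals. Nfkbib at 13.9 and Nfkb2 at 13.7, again overlapping, came before Nfkbia at 10.4, Nfkb1 at 6.36, Nfkbie at 5.24, and Rel at 3.93 with Relb at 3.51, whose intervals overlapped. Nfkbiz was last at 0.626. In 4T1-CM with DMSO Nfkbia came first at 47.7, ahead of Tnfaip3 at 35.7, Rela at 29.2 and Nfkb2 at 25.6, and Nfkbiz, at 12.9, had passed Relb at 10.6, Nfkb1 at 9.47 and Rel at 5.58. Nfkbib at 16.9 and Nfkbie at 16.7 could not be separated, nor could Relb and Nfkb1. The libraries with CH223191 gave the same order in 4T1-CM, and in normal medium it differed by Nfkb2, at 16.8, standing before Nfkbib.

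This order depends on the length used. The table's length for Nfkb1, 12061 bases, covers all its annotated transcripts, while its principal transcript has 4117. With the principal transcript Tnfaip3 was first in all 4 libraries and Nfkb1 had rank 3 in both normal medium libraries, and Nfkbia took rank 2 in 4T1-CM with DMSO. In that library Nfkbiz, at 15.7 CPM per kilobase, was then below Relb at 18.6 and Nfkb1 at 27.7 and above Rel alone.

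The makeup of the family differed between the libraries of the 2 media by more than counting error. The 5 subunits summed to 53.3 and 54.5 CPM per kilobase in normal medium and to 80.4 and 80.3 in 4T1-CM, while Nfkbia, Nfkbib and Nfkbie together stood at 29.5 and 27.6 against 81.3 and 80.6. The sum of cytoplasmic IkB per subunit sum was thus 0.554 and 0.506 in the normal medium libraries and 1.01 and 1.0 in those of 4T1-CM, 1.83-fold higher with DMSO (1.68 to 1.99) and 1.98-fold with CH223191 (1.81 to 2.17). CH223191 against DMSO gave 0.914-fold in normal medium (0.823 to 1.02) and 0.992-fold in 4T1-CM (0.927 to 1.06). Nfkbia supplied 35.3% and 38.0% of the IkB sum in normal medium and 58.7% and 59.7% in 4T1-CM, while the share of Nfkbib was 47.0% and 47.4% against 20.8% and 20.9%. Among the subunits the share of Rela was 48.3% and 45.9% against 36.3% and 38.8%, and that of Relb 6.58% and 5.92% against 13.1% and 11.8%. These are transcripts per length, not protein, and the shares were computed with the gene length alone, not with the principal transcript.

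**Figure D4:**
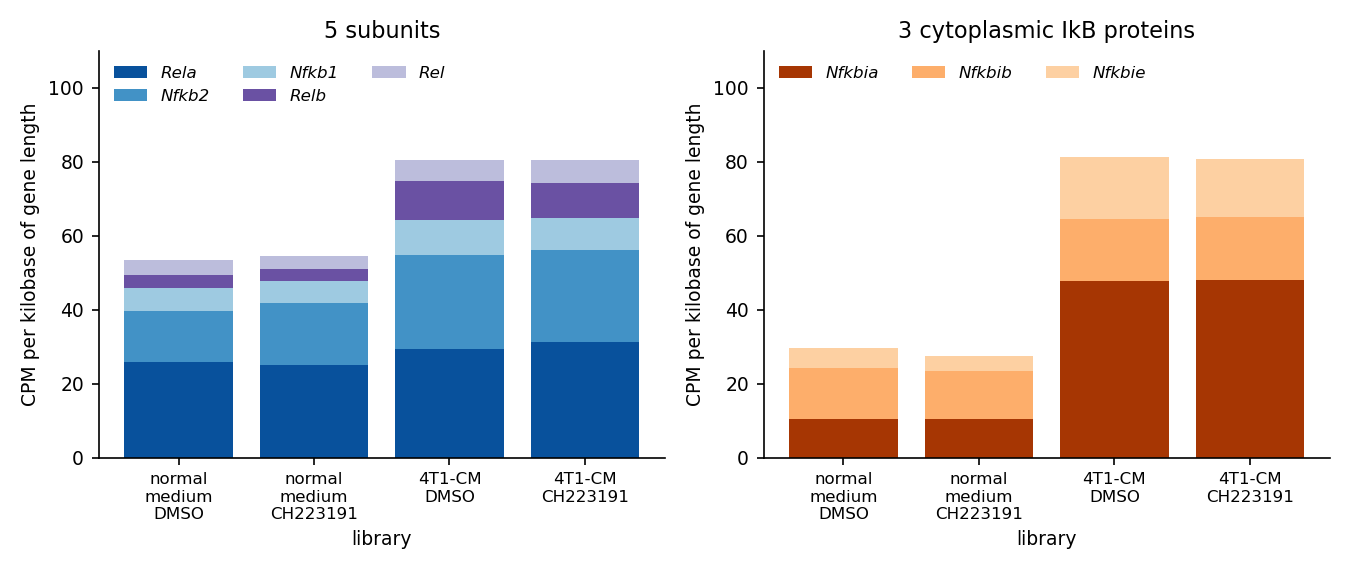
Stacked level per gene length (CPM per kilobase) of the 5 subunits on the left and of the 3 cytoplasmic IkB genes on the right, 1 bar per library. The subunit bars are 53.3 and 54.5 high in normal medium and 80.4 and 80.3 in 4T1-CM, and the IkB bars are 29.5 and 27.6 against 81.3 and 80.6 high, with Nfkbia as the largest layer in 4T1-CM.

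Other genes of the pathway were read from 6 lists, which like the members were chosen with earlier results of these data known. The lists held 87 genes, of which 86 passed the filter. With DMSO 27 of them exceeded 2-fold upward in 4T1-CM and 1 downward, and with CH223191 28 and 2. In both comparisons 26 were higher and 1 lower. Of all genes 12.2% were higher and 6.12% lower with DMSO, 12% higher and 7.86% lower with CH223191, and 8.18% higher and 3.38% lower in both. Where 10 reads were required in every library 78 pathway genes remained, and 20 of them were higher in both comparisons and 1 lower. The share of all genes called under that stricter filter was not computed. The IKK complex and its upstream kinases gave 0 of 11 in either direction, with a median log2 ratio of 0.25 with DMSO and 0.52 with CH223191. At the shares of all genes given above, 0 of 11 does not set the kinases apart from other genes. Among 4 other IkB proteins and regulators, 1 was higher in both comparisons, Bcl3, the nuclear IkB that binds p50 and p52. Bcl3 had 89 and 76 reads in normal medium and 615 and 572 in 4T1-CM, 6.26-fold higher with DMSO and 7.33-fold with CH223191. Nfkbid, which encodes the nuclear IkBNS, had 262 and 229 reads against 156 and 158, log2 ratios of -0.88 (-1.18 to -0.59) and -0.56 (-0.87 to -0.27), opposite in sign to Bcl3 and Nfkbiz but below 2-fold.

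Among 19 ubiquitin ligases and adaptors 3 were higher in both comparisons and 0 lower, beside 8.18% and 3.38% of all genes. Traf1, a TNF receptor adaptor, had 47 and 45 reads against 522 and 423, 10.0-fold with DMSO and 9.11-fold with CH223191. Birc3, the ligase cIAP2, was 4.71-fold and 4.17-fold higher, and Ripk2, the kinase below NOD receptors, 2.31-fold and 2.0-fold, the latter at the limit. Of 12 deubiquitinases and other brakes, beside the same shares, 3 were higher in both and 0 lower. They were Irak3, an inhibitory IRAK kinase, at 9.32-fold and 7.30-fold, Tnip3, a partner of A20, at 8.06-fold and 6.24-fold, and Zc3h12a, the RNase Regnase-1, at 6.31-fold and 6.12-fold. Their ratios were larger than those of Tnfaip3.

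Of 17 receptors and proximal adaptors 3 were higher in both comparisons, Tlr2, Cd14 and Cd40, beside 8.18% of all genes. Tlr2, the receptor of bacterial lipoproteins, had 95 and 68 reads in normal medium and 4404 and 3150 in 4T1-CM, log2 5.39 with DMSO and 5.49 with CH223191. Cd14, the co-receptor of lipopolysaccharide, had 4379 and 3808 against 55189 and 55483 reads, 11.5-fold and 14.3-fold.

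The 24 known NF-kB targets were the list with the most differences. Of 23 that passed the filter 16 were higher and 1 lower in both comparisons, beside 8.18% and 3.38% of all genes. For 5 of the 23, Il1b, Il6, Cxcl1, Ccl5 and Nos2, the filter of 10 reads was met in 4T1-CM libraries alone, which fixed their direction, and they are no support for it. Of the other 18 there were 11 higher and 1 lower in both comparisons, with a median log2 ratio of 1.39 with DMSO and 1.41 with CH223191, where counts of 3 or fewer were set to 3 reads. Over all 23 the median was 2.85 and 2.12, and 2.25 and 1.62 with low counts set to 3 reads. Il1b, the cytokine interleukin-1 beta, had 2 and 8 reads in the normal medium libraries and 3162 and 2252 in those of 4T1-CM. Ier3, an early response gene, was 18.6-fold and 16.4-fold higher, Mmp9, a gelatinase, 9.38-fold and 8.88-fold, Il1a 9.19-fold and 9.26-fold, and Sod2, the mitochondrial superoxide dismutase, 7.22-fold and 6.45-fold. The gene that was lower was Bcl2l1, which encodes Bcl-xL, with 4114 and 3969 reads in normal medium and 1586 and 1556 in 4T1-CM.

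**Figure D5:**
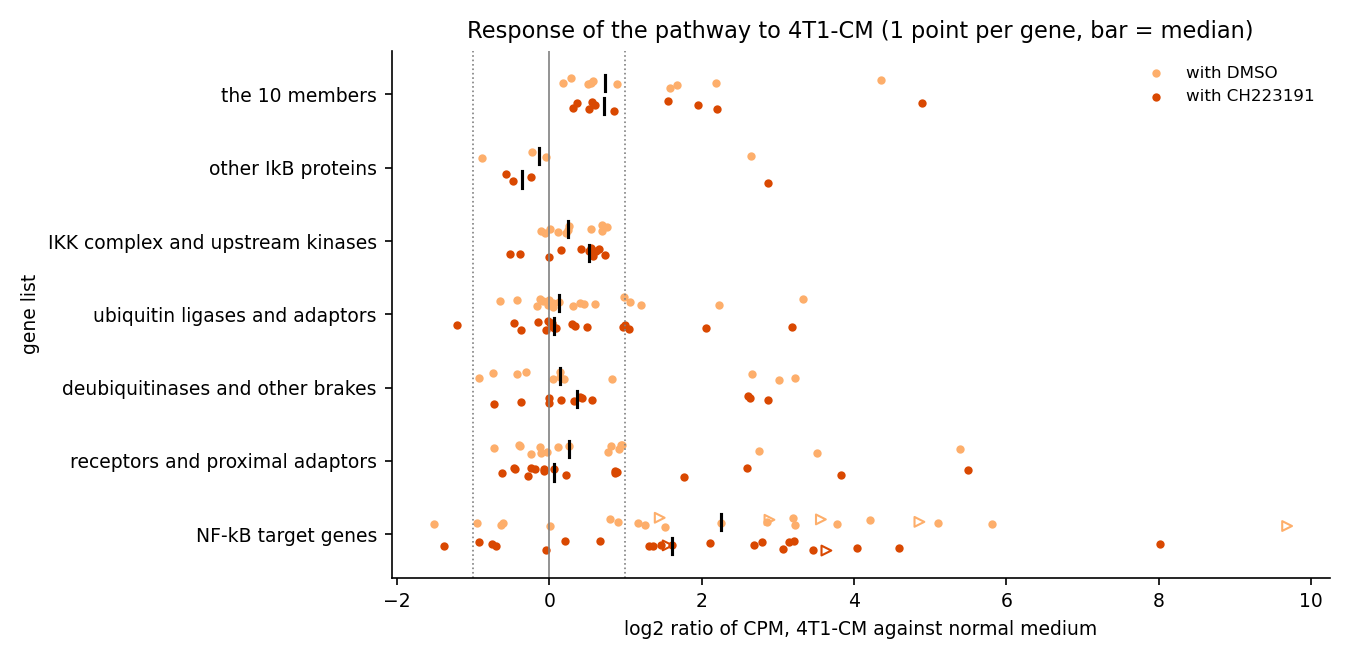
Log2 ratio of 4T1-CM to normal medium for the 10 members and the 86 other pathway genes by list, with DMSO (light) and CH223191 (dark). Each point is a gene and black bars are medians, open triangles mark genes with 3 reads or fewer in normal medium, drawn with that count set to 3, and dotted lines mark 2-fold. The kinases stay within 2-fold, and the targets have the highest medians, 2.25 and 1.62, or 1.39 and 1.41 without the 5 genes that passed the filter in 4T1-CM alone.

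By point estimate CH223191 left 86 of 86 pathway genes within 2-fold in 4T1-CM, where 2.8% of all genes were higher and 2.62% lower. The counting interval reached past 2-fold for Ptgs2, at -0.86 (-1.25 to -0.48), and Vcam1, at 0.81 (0.12 to 1.56). It also did so for Ube2v1 and Il6, which had few reads. Among the targets the interval lay below 0 for Tnf, Il1a, Il1b, Cxcl1, Cxcl2, Ccl3, Icam1, Sod2 and Ptgs2. It lay above 0 for Vcam1 and Mmp9. Intervals that left out 0 were not particular to the targets. In other lists they lay below 0 for Tlr2, at -0.38 (-0.44 to -0.31), and Irak3, at -0.22 (-0.30 to -0.14), among others. They lay above 0 for Tnip2, at 0.49 (0.30 to 0.68), and Irak2, at 0.24 (0.15 to 0.33), among others. The share of all genes with such intervals was not computed. In normal medium 6 of 86 were past 2-fold upward and 0 downward, beside 4.84% and 3.31% of all genes, and all 6 were targets with few reads. Nos2 had 0 reads with DMSO and 1 with CH223191, so that its call came from the prior count alone. Il1b had 2 and 8 reads and Ccl5 3 and 9, and their counting intervals included 0. Vcam1 had 0 and 10 reads and Cxcl2 5 and 15, and their intervals lay above 0. Ebi3, a subunit of IL-27, had the most reads of the 6, 33 and 72, and a log2 ratio of 1.12 (0.52 to 1.77).

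Likeness of profile was measured as the distance between log2 CPM values centred over the 4 libraries, among the 8322 genes that averaged 10 CPM or more. For Nfkbiz, the member with the widest range, the nearest genes were Cxcl16 at 0.28, Thbs1 at 0.32, Tmeff1 at 0.44, C3 at 0.46 and Aoah at 0.53. For Nfkbia they were Dab2 at 0.10, Pla2g7 at 0.11, Sgk1 at 0.12, Birc3 at 0.14 and Osm at 0.14. Within the family Nfkb1 and Tnfaip3 were closest, at 0.09, followed by Rela and Nfkbib at 0.11. Each distance rests on 4 libraries, and no function is read from it.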

How the data were processed

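RNA was taken from peritoneal macrophages with TRIzol and libraries were made with the NEBNext Ultra RNA kit. The authors deposited a table of raw counts with gene lengths, and per the labels HISAT2 2.0.5 and DESeq2 were used. The methods name featureCounts for other libraries of the study, of alveolar macrophages, and the counter, build and strand setting of the present ones are not given in the sources used here, so reads of overlapping genes may be misassigned. Coordinates equalled GENCODE M21 (GRCm38) for 53499 of 54409 shared genes and for all members but Nfkb2.

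Genes with at least 10 reads in 1 library were kept, scaled by TMM (edgeR 4.0.16, R 4.3.3) and compared as log2 ratios with a prior count of 0.5. All intervals are at 95%. Those of the level of a gene in a library are exact Poisson intervals, and those of ratios exact Clopper-Pearson intervals of the read split. Wald intervals were used for differences of ratios and for summed levels. A called gene differed at least 2-fold. Up to 5 genes per list with a mean of at least 10 CPM were named, ranked by the smaller ratio of both 4T1-CM comparisons, and other list genes, such as Cd40, Nfkbid, Bcl2l1, Ebi3 and Cxcl2, were named after their values were seen. The nearest profiles are the 5 closest genes of the 2 members with the widest range. The prior count, the motifs, the IkB sums and the principal transcript length were chosen after values were seen. The members and lists were chosen with earlier results of these data known. The procedure was tested on simulated data. Alternatives included other scalings, filters and a prior count of 5, and additive fits with edgeR and DESeq2 1.42.0.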

Additional observations from a re-analysis of the deposited data

Results flagged for a closer look

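Cd14, the lipopolysaccharide co-receptor among the pathway genes, was lower with CH223191 than with DMSO in normal medium (log2 ratio -0.20, counting interval -0.26 to -0.14) and higher in 4T1-CM (0.12, 0.10 to 0.13). It drew attention because the 2 media gave opposite signs. Cd14 was not alone in this among the pathway genes. Cyld changed sign the same way, from -0.41 (-0.56 to -0.26) without 4T1-CM to 0.16 (0.0041 to 0.31) with it. Ccl3 did so the other way, from 0.39 (0.26 to 0.52) to -0.21 (-0.32 to -0.11), as did Ube2n, Tnip1 and Cxcl2. Both intervals left out 0 for each of these genes. None of these differences was tested against any spread between cultures.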

How the results depend on the processing

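No paired analysis was possible because no group has more than 1 library, so no replicate numbers are shared between groups. The additive fit below does compare the media with the inhibitor as a term. The alternatives were DESeq2 size factors, total counts, protein-coding genes alone, no filter, 10 reads required throughout, and a prior count of 5. Of 240 recomputed member ratios none crossed 2-fold or moved by more than 0.17, the value at the prior count of 5. The sign held in all 120 ratios for 4T1-CM and in all but 2 of the 120 for CH223191, both of ratios no larger than 0.0088. The number of members called stayed at 4 and 0. An additive fit over the 4 libraries (terms for medium and for inhibitor, 1 residual degree of freedom) called 8 of 10 members for medium with edgeR and 8 with DESeq2 at an adjusted p of 0.05, against 4 by the 2-fold rule. Rela and Nfkbib were not called. Without replicates the p-values of the fit do not measure variation between cultures. Over all genes the medium term called 32.6% with edgeR and 18.5% with DESeq2. For the inhibitor it called 0 of 10 with either tool, and 0 at an unadjusted p under 0.05. Pathway genes at least 2-fold lower in 4T1-CM with CH223191 numbered 2, and 1 with 10 reads required in every library or a prior count of 5. Those higher with CH223191 in normal medium numbered 6, 1 and 3 in the same order. Cytoplasmic IkB per subunit was 0.461, 0.425, 0.810 and 0.819 with the length of the principal transcript, an alternative chosen after the data were seen, and the 4T1-CM ratios were then 1.76-fold and 1.93-fold. Among the 10 members depth limits Nfkbiz in normal medium most, with 35 and 50 reads. Several targets had fewer, such as Il6 with 0 in both normal medium libraries.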
